A study of Mus musculus with 21 samples.

Results

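The complement genes described here were 9 genes, *C1qa*, *C1qb*, *C1qc*, *C1ra*, *C2*, *C3*, *C4b*, *Cfb* and *Serping1*, chosen by symbol among the 55491 genes measured in skin and in inguinal lymph nodes. All 9 were found in both tissues, and 9 of 9 passed the filter on low counts in each, among 19101 genes tested in skin and 16173 in nodes. The mice were BALB/c wild-type (WT) animals and *Ifnk* transgenic (TG) animals on a BALB/c background. TG animals carry interferon kappa, a type I interferon, under the keratin 14 promoter, so that the transgene is driven in the epidermis. Per the methods, the TG line was made in another strain and then backcrossed onto BALB/c. Differences between the lines other than the transgene were not tested. Skin came from 12-month-old mice without UVB: WT nonlesional skin (n = 3), *Ifnk* TG nonlesional skin (NL, n = 2) and *Ifnk* TG lesional skin (L, n = 4). Inguinal lymph nodes, which drain skin, came from WT and *Ifnk* TG mice without UVB and after UVB (n = 3 in each of the 4 groups), and the labels give no age for these animals. UVB was 250 mJ/cm2 on 3 days per week for 2 weeks at 310 nm in mice shaved on the back, and nodes were taken after 2 further weeks of observation. Nodes were pressed through a 70 µm cell strainer before lysis, so the RNA came from cells that passed it. Libraries are named below by group and by the sample number in their labels, which do not tie libraries to animals.

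Complement is a chain of plasma and tissue proteins that tag antibody, debris and microbes. C1q, built of the chains of *C1qa*, *C1qb* and *C1qc*, recognizes antibody and dying cells, and its proteases C1r and C1s then cleave C4 and C2 (the classical pathway). C3 is the protein on which the routes converge, factor B (*Cfb*) amplifies its cleavage in the alternative pathway, and C1 inhibitor (*Serping1*) stops C1r and C1s. In lupus, inherited lack of early classical components is a strong risk factor, while complement is also deposited in inflamed skin and kidney. Tissue macrophages are the main source of C1q, and fibroblasts, epithelium and liver make most of the others.

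The genes fall into few places of the genome (GRCm38, GENCODE M21). *C1qb*, *C1qc* and *C1qa* lie side by side on the minus strand of chromosome 4 within 18.7 kb (136880129 to 136898803). *C4b* (34728380 to 34743882), *Cfb* (34856374 to 34862518) and *C2* (34862604 to 34898265) lie on the minus strand of chromosome 17, with 85 bases between *Cfb* and *C2*. *C3* lies farther along chromosome 17 (57203970 to 57228136), *C1ra* on the plus strand of chromosome 6 (124512405 to 124523443) and *Serping1* on the minus strand of chromosome 2 (84765387 to 84775444). Some of these genes have near copies, and their counts are uncertain to that extent. Of all 50-base stretches in the transcripts, *C1ra* shared 50.8% with *C1rb* and *Gm18840*, *C4b* shared 34.6% with *C4a*, and *Cfb* and *C2* shared 73.0% and 38.7% with *Gm20547*, a transcript that runs over both. As a ratio of 2 separate counts, *C1rb* over *C1ra* was 2.46% to 7.71% in skin and 0% to 7.12% in nodes, and *C4a* over *C4b* was 2.54% to 3.38% in skin and 3.40% to 16.7% in nodes.

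Start-site windows (RefSeq, GRCm38.p6, 250 bases before to 50 after the start) were at hand for 4 of the 9 genes, *C1qb*, *C1qc*, *C1ra* and *C3*. The 250 bases before the start of *C3* (chr17:57228137-57228386, minus strand) and of *C1qb* (chr4:136886201-136886450, minus strand) are shown as windows of a central component and of a C1q chain, whose UVB estimates in nodes (log2 fold change -0.73 and -0.11, neither past the threshold) are described below and were not tested against each other. Both run 5′ to 3′ and hold no annotated exon bases, and capitals mark the motif matches.
C3: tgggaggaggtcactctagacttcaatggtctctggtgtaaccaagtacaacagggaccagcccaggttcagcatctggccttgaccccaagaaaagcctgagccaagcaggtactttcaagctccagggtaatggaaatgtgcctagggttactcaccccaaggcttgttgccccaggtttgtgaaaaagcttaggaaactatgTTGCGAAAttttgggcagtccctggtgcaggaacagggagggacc
C1qb: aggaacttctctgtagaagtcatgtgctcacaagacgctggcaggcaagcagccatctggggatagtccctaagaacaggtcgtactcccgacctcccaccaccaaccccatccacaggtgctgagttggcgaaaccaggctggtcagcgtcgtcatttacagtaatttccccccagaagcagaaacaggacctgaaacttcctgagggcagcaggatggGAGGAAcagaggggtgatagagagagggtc
The capitals in *C3* match TTGCNNAA, a C/EBP-type motif, 45 bases before the start, and those in *C1qb* match GAGGAA, the core bound by PU.1 of the myeloid lineage, 30 bases before it. Both strands were searched in 32851 windows of 300 bases, of which 10.8% held the first motif and 28.3% the second. Neither an interferon-stimulated response element (GAAA, any 2 bases, GAAA, in 3.44% of windows), nor a kappaB site (GGGA, any base, TTTCC, in 0.411%), nor a CCAAT box (in 37.4%) was matched in any of the 4 windows. A gamma-activated site (TTCNNNGAA, 8.30% of windows) was matched in *C1ra*, and a TATAAA box (13.6%) in *C3* 14 bases after the annotated start. GAGGAA was also matched in *C1qc* and *C1ra*. These matches describe the letters of the windows and are not binding sites.

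Library totals ran from 40499078 to 56511276 counts in skin and from 27599809 to 36428435 in nodes. The lowest member count was 662 in skin (*C2*) and 29 in nodes (also *C2*). *Ifnk* itself had 0 counts in the 3 WT skin libraries, 6 and 0 in the NL libraries 2 and 3, and 14, 11, 5 and 8 in the L libraries 4 to 7. The library labelled NL 3 therefore could not be told from WT by the transgene, and a count of 0 allows up to 3 counts. In nodes *Ifnk* had 0 counts in all 12 libraries. *Xist* was above 1 CPM (the count scaled to a common library size by edgeR) in 7 of 9 skin libraries, all but NL 3 and L 6, and in 1 of 12 node libraries, TG after UVB 11.

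Per length, the order of the members in WT skin ran from *C1qa* down to *C2*. Mean levels in WT skin, as CPM per kb of exon, were 134 ± 64.6 for *C1qa* (SD, n = 3), 123 ± 9.61 for *C4b*, 121 ± 16.6 for *C3*, 107 ± 17.4 for *Serping1* and 105 ± 50.8 for *C1qb*. These 5 neighbours did not differ beyond their spread. *Cfb* at 60.1 ± 9.88 and *C1qc* at 55.2 ± 26.8 came next, followed by *C1ra* at 35.9 ± 8.31 and *C2* at 14.1 ± 0.614. In WT nodes without UVB the levels were lower and the order was another. *C3* led with 27.7 ± 3.32 CPM per kb, *Cfb* had 9.42 ± 3.12 and *C1qa* 8.01 ± 0.791. *Serping1* (5.71 ± 0.921) and *C1qb* (5.52 ± 0.557) could not be told apart, *C4b* stood at 3.98 ± 0.800, *C1qc* and *C1ra* at 2.80 ± 0.123 and 2.68 ± 0.647, and *C2* again last at 1.05 ± 0.226. *C4b* thus stood beside *C3* in WT skin but far below it in nodes: the ratio of *C3* to *C4b* counts was 0.808 to 1.02 in the 3 WT skin libraries and 5.87 to 6.96 in the 3 WT nodes without UVB. Skin and nodes were counted in separate tables, and the labels give an age for the skin mice and none for the node mice, so levels across them are set side by side without a test.

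**Figure D1:**
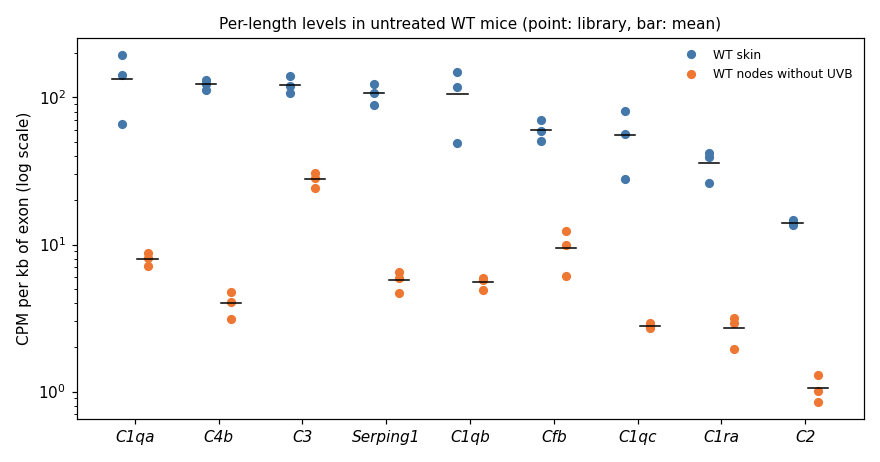
Levels of the 9 complement genes in WT skin (blue) and WT nodes without UVB (orange), as CPM per kb of exon on a log scale, with 1 point per library and a bar at the mean of 3. *C4b* is among the highest genes in skin and drops to 3.98 CPM per kb in nodes, where *C3* leads with 27.7.

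Lesional skin was compared with WT skin to ask how the complement genes stand in the lesions of *Ifnk* TG mice. None of the 9 passed an adjusted p of 0.05 (edgeR quasi-likelihood test), while 43.1% of the 19101 tested genes did. No member had an unadjusted p under 0.05 either (51.7% of all genes did), and DESeq2 called 1 of 9, *C4b* (47.2% of all genes). All 9 estimates were below 0 (46.5% of all genes were), with a median of -0.62 against 0.06 over all genes.

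*C4b*, a classical pathway substrate cleaved by C1s, had the lowest estimate. Its CPM was 645, 755 and 704 in WT 8, 9 and 10, 349 and 427 in NL 2 and 3, and 289, 49.8, 532 and 257 in L 4, 5, 6 and 7. Every TG library, NL or L, was below every WT library. Of all tested genes 23.4% were so placed in L and 16.3% in NL, and the share so placed in both was not computed. The log2 fold change of L over WT was -1.31 (SE 0.60, 95% interval -2.69 to 0.06, adjusted p = 0.110), or 0.402-fold.

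*Cfb*, the alternative pathway protease, had the next lowest estimate. Its CPM was 199, 168 and 143 in WT, 109 and 104 in NL, and 116, 24.5, 120 and 107 in L. Again no TG library reached the WT range, and 3 of the 4 L libraries were level with NL. The log2 fold change of L over WT was -0.89 (SE 0.46, adjusted p = 0.152). *C4b* and *Cfb* were the 2 members with lower, non-overlapping libraries in L, and 23.4% of all tested genes were so placed.

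*C3*, the central component, spread widely in lesions. It had 548, 609 and 716 CPM in WT, 541 and 563 in NL, and 456, 58.1, 929 and 340 in L, so that L held both the lowest and the highest library of the 9. Its log2 fold change of L over WT was -0.49 with an interval of -2.08 to 1.11 (adjusted p = 0.601), which leaves both a fall and a rise in range. *C2*, the serine protease partner of C4, had 57.1, 53.9 and 52.4 CPM in WT, 49.0 and 37.4 in NL, and 34.6, 16.3, 52.5 and 37.0 in L. The WT libraries lay close together, and 1 of the 4 L libraries reached them (log2 fold change -0.63, SE 0.32, adjusted p = 0.143).

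The C1 complex and its inhibitor followed with intervals that included 0. *C1qa* had 68.3, 202 and 147 CPM in WT, 65.6 and 97.5 in NL, and 103, 44.8, 144 and 70.2 in L, and *C1qb* and *C1qc* kept the same order of libraries in WT. WT was itself spread 2.96-fold in *C1qa*, with WT 8 inside the range of the TG libraries. The log2 fold changes of L over WT were -0.62 for *C1qa*, -0.55 for *C1qb* and -0.70 for *C1qc* (adjusted p = 0.307, 0.343 and 0.184). *C1ra*, the first protease, stood at -0.48 (SE 0.41, adjusted p = 0.375), and *Serping1* at -0.48 (SE 0.31, adjusted p = 0.244) from 208, 289 and 252 CPM in WT, 181 and 137 in NL, and 179, 85.9, 247 and 203 in L.

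**Figure D2:**
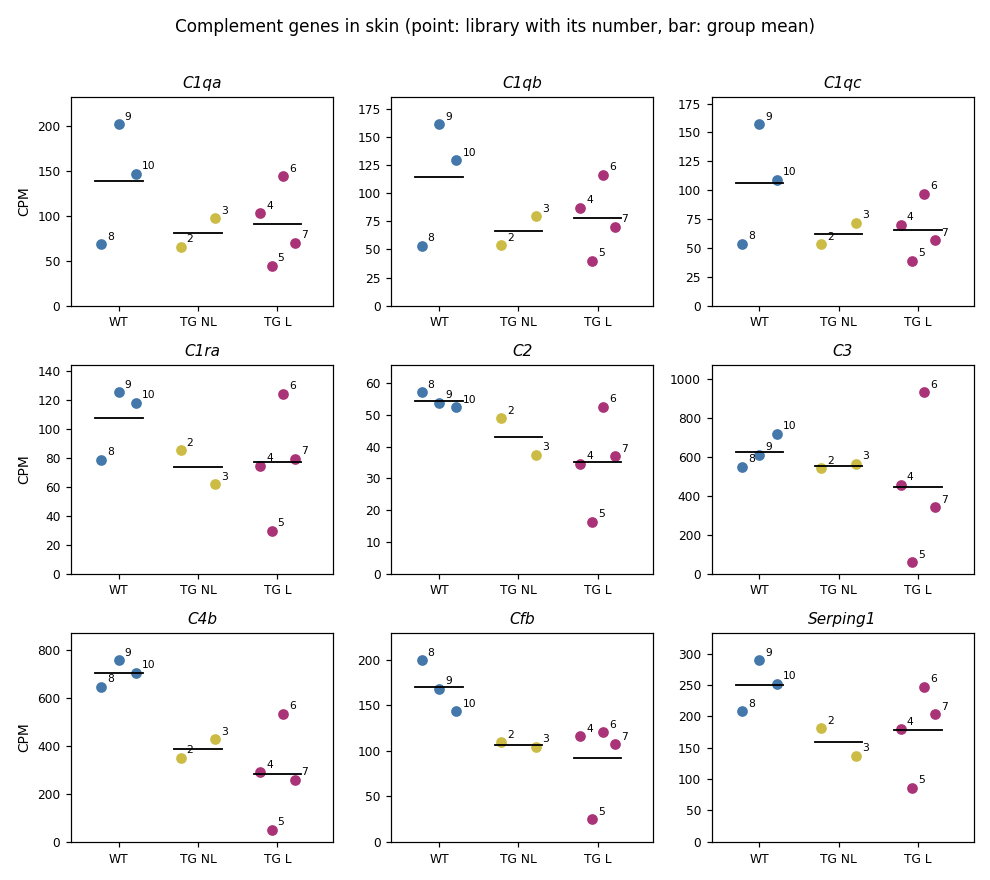
CPM of the 9 complement genes in each skin library (point, with its sample number) by group, with a bar at the group mean and axes that start at 0. *C4b* and *Cfb* are lower in every TG library than in every WT library (23.4% of all tested genes were so placed in L and 16.3% in NL). Within L library 5 is lowest and library 6 highest for each gene.

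Within the lesions, 1 library was lowest and another highest for 9 of 9 members. L 5 was the lowest and L 6 the highest. Without L 5 both *C4b* (log2 fold change -0.96, adjusted p = 0.0221) and *Cfb* (-0.57, adjusted p = 0.0102) passed the threshold as lower in L than WT. Without L 6 both *C4b* (-1.82, adjusted p = 0.0382) and *C2* (-0.89, adjusted p = 0.0413) did. Of all tested genes, 40.3% were called without L 5 and 39.6% without L 6. The adjusted p of *C4b* ranged from 0.0221 to 0.208 over the fits that left out 1 library.

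The skin libraries also differed in tissue composition. Skeletal muscle genes (7 genes, summed) had 25400 to 35500 CPM in WT, 24100 and 28600 in NL, and 6570, 23.6, 351 and 1400 in L 4 to 7. Adipocyte genes (6 genes) had 4590 to 8590 CPM in WT, 5180 and 3880 in NL, and 2670, 639, 2540 and 3170 in L. Hair shaft genes (7 of 8 listed were measured) had at most 0.616 CPM in WT and 1380, 4500, 3210 and 4070 in L. The macrophage list (10 genes, which holds no C1q gene) had 479, 1200 and 909 CPM in WT, 437 and 626 in NL, and 503, 246, 806 and 435 in L. The fibroblast list (7 genes) had 4880, 6710 and 7670 in WT, 5270 and 3160 in NL, and 4110, 4440, 3520 and 8180 in L. L 5 was thus lowest for muscle, fat and macrophage genes and highest for hair shaft genes, but not lowest for fibroblast genes. L 6, the highest L library for each member, was the lowest L library for fibroblast genes. The keratinocyte list (7 genes) had 11000, 9760 and 8940 CPM in WT, 18000 and 16000 in NL, and 23000, 17100, 19000 and 7960 in L. Liver genes summed to at most 14.1 CPM in any skin library. Fewer cells of a type and less RNA per cell cannot be told apart in bulk tissue, and the part of composition in these results was not tested. Leaving keratin, muscle and fat genes out before scaling gave a *C4b* log2 fold change of -1.31 and no call.

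The members were set beside interferon-responsive genes in the same libraries. The list of genes induced by interferon gamma had 8 of 12 members higher in L than WT (23.0% of all genes were), with a median log2 fold change of 1.83. The list typical of type I interferon had 2 of 12 higher and a median of 0.89. Summed, the first list had 249, 173 and 179 CPM in WT, 215 and 177 in NL, and 965, 380, 1870 and 362 in L, and L 6, the highest of these, was also the L library with the most complement RNA. L 5, the lowest for complement, was not the lowest of the L libraries for this list.

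The L libraries were also compared with NL skin of the same genotype. In this contrast 0 of 9 members passed (25.0% of all genes did), with 0 of 9 at an unadjusted p under 0.05 (39.0% of all genes). DESeq2 called 0 of 9 (32.5% of all genes). The estimates ran from -0.46 for *C4b* (SE 0.67) to 0.23 for *C1qb* (SE 0.50), and *C3* stood at -0.31 (95% interval -2.10 to 1.49). With 2 NL libraries, 2-fold changes either way lay within the interval of *C3*.

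NL skin was compared with WT skin to see how far the genes differed in TG skin labelled as free of a lesion. In this contrast 0 of 9 members passed in edgeR, as did 0% of all genes. No member had an unadjusted p under 0.05 (7.67% of all genes did), and DESeq2 called 0 of 9 (0.419% of all genes). All 9 estimates were below 0 (50.1% of all genes were), with a median of -0.67 against 0.00 over all genes. They were -0.85 for *C4b* (SE 0.74), -0.78 for *C1qb*, -0.77 for *C1qa* and *C1qc*, -0.67 for *Cfb* (SE 0.56), -0.65 for *Serping1*, -0.54 for *C1ra*, -0.33 for *C2* and -0.18 for *C3*. *C2*, *C4b*, *Cfb* and *Serping1* had NL libraries 2 and 3 below each of WT 8, 9 and 10, and 16.3% of all tested genes were so placed. The contrast shares its WT libraries with that of L over WT. Without the library labelled NL 3, which had no *Ifnk* count, *C4b* stood at -1.03 and *Cfb* at -0.67, and *C2* at -0.18. The 7 fibroblast and 10 macrophage genes also all had estimates below 0 in NL, with medians of -0.59 and -0.63. The 7 keratinocyte genes all had estimates above 0, with a median of 0.72. The part of these lists was not tested.

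The balance between members was steadier for some pairs than for others. The *C1qc* to *C1qb* count ratio stayed between 0.806 and 1.01 in all 9 skin libraries, although the C1q sum ran from 123 to 520 CPM. The ratio of the C1q sum to the macrophage sum was 36.6% to 51.8% in all 9. The *C3* to *C4b* ratio was 0.808 to 1.02 in WT, 1.32 to 1.55 in NL and 1.17 to 1.75 in L, with no overlap of WT and TG. This ratio was looked at after the values were seen and was not tested. *Serping1* to *C1ra*, the inhibitor and its target, stayed at 1.99 to 2.89.

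In nodes, UVB was compared with no UVB over both genotypes. *C1ra* was lower after UVB, and 8 of the 9 members did not pass: 1 of 9 was called, against 8.61% of all tested genes (3.80% lower). At an unadjusted p under 0.05 there were 5 of 9, *C1ra*, *C2*, *C3*, *C4b* and *Serping1*, all with estimates below 0, against 28.2% of all genes. DESeq2 called 3 of 9, *C1ra*, *C2* and *Serping1*, lower, where it called 15.1% of all genes in either direction. The estimates of all 9 were below 0 (48.8% of all genes), those of *Cfb* and the C1q chains by little.

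*C1ra* had 9.42, 8.78 and 5.80 CPM in WT 1, 2 and 3 without UVB, and 8.35, 15.9 and 8.93 in TG 4, 5 and 6. After UVB it had 6.49, 2.36 and 2.64 in WT 7, 8 and 9, and 4.45, 4.49 and 7.56 in TG 10, 11 and 12. In TG every library after UVB was below every library without it (7.11% of all genes were so placed), while in WT the ranges overlapped through WT 3 and WT 7. Over both genotypes the log2 fold change was -1.03 (SE 0.28, 95% interval -1.65 to -0.42, adjusted p = 0.0453), or 0.489-fold. With the counts of *C1rb* added it was -1.05 (adjusted p = 0.0428). The call lay at the threshold: it held without WT 7 or TG 12 and was lost without any 1 of the other 10 libraries, where the estimate stayed between -1.14 and -0.87 and the highest adjusted p was 0.105.

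*Serping1* and *C4b* had estimates of the same size with a wider spread. *Serping1* had 15.1, 13.8 and 10.9 CPM in WT and 15.6, 24.4 and 13.1 in TG without UVB, and 11.8, 3.64 and 3.65 in WT and 5.35, 4.56 and 14.3 in TG after UVB. *C4b* had 26.9, 23.1 and 17.9 in WT and 24.9, 40.8 and 24.1 in TG without UVB, and 20.9, 5.89 and 6.41 in WT and 9.68, 8.18 and 26.1 in TG after UVB. In both genes 4 of the 6 libraries after UVB (8, 9, 10 and 11) were below all 6 without UVB, and libraries 7 and 12 were within that range. The log2 fold change was -1.10 for *Serping1* (SE 0.38, adjusted p = 0.0984) and -1.03 for *C4b* (SE 0.40, adjusted p = 0.132).

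*C3* showed the same libraries low: 158, 146 and 124 CPM in WT and 154, 255 and 167 in TG without UVB, against 151, 59.8 and 62.0 in WT and 89.7, 66.0 and 174 in TG after UVB. Its log2 fold change was -0.73 (SE 0.31, adjusted p = 0.165). *C2* had 3.92, 5.02 and 3.29 CPM in WT and 4.46, 8.20 and 4.12 in TG without UVB, and 3.60, 1.05 and 2.02 in WT and 2.82, 3.62 and 4.41 in TG after UVB (log2 fold change -0.75, SE 0.27, adjusted p = 0.0969). Here the groups overlapped in both genotypes.

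*Cfb* and the C1q chains had estimates nearer 0, with intervals that overlapped those of *C3* (-1.42 to -0.03) and *C4b* (-1.93 to -0.13). *Cfb* had 27.9, 34.7 and 17.2 CPM in WT and 27.4, 38.3 and 25.6 in TG without UVB, and 34.3, 18.9 and 22.7 in WT and 24.9, 26.9 and 31.3 in TG after UVB. Its ranges overlapped in both genotypes, and the log2 fold change was -0.10 with an interval of -0.52 to 0.32. For *C1qa*, *C1qb* and *C1qc* the log2 fold changes were -0.16 (95% interval -0.67 to 0.36), -0.11 (-0.57 to 0.36) and -0.06 (-0.55 to 0.43). *C1qa* had 8.45, 9.09 and 7.46 CPM in WT and 7.46, 19.7 and 8.59 in TG without UVB, and 9.91, 6.04 and 7.45 in WT and 11.0, 7.45 and 12.2 in TG after UVB. TG 5 was the highest library for all 9 members, and without it the 3 C1q estimates turned to 0.11, 0.14 and 0.18.

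**Figure D3:**
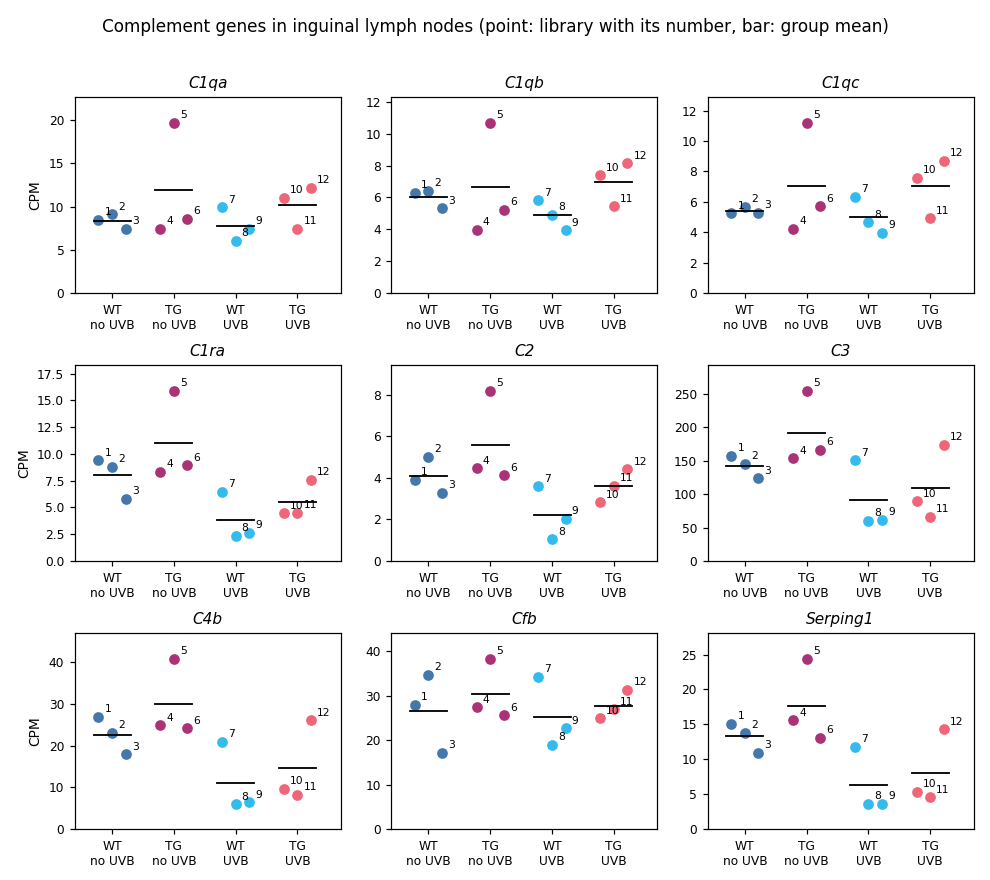
CPM of the 9 complement genes in each node library (point, with its sample number) by genotype and UVB, with a bar at the group mean and axes that start at 0. After UVB, libraries 8, 9, 10 and 11 are low for *C4b*, *C3* and *Serping1* while 7 and 12 are not, and TG 5 without UVB is highest for every gene.

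Genes of fibroblasts were low in the same node libraries. The fibroblast list (7 genes) summed to 71.7, 67.9 and 50.6 CPM in WT and 59.0, 119 and 61.5 in TG without UVB, and to 40.6, 15.1 and 15.5 in WT and 31.9, 20.4 and 59.5 in TG after UVB. All 7 of its genes had estimates below 0 and 4 passed as lower after UVB (3.80% of all genes did), with a median log2 fold change of -1.31. As a ratio to this sum, *C4b* was 30.4% to 51.4% in the 12 libraries and *Serping1* 16.8% to 29.0%. *Cfb* was 32.2% to 51.1% without UVB and 52.6% to 146% after it, and *C3* was 215% to 271% and 281% to 400%. *C1ra* was 11.5% to 14.5% without UVB and 12.7% to 22% after it, and *C2* was 5.47% to 7.55% and 7% to 17.7%. The list of node stroma genes (7 genes) ran from 383 to 493 CPM without UVB and from 248 to 375 after it, with 1 of 7 called lower. Macrophage genes (10) ran from 77.1 to 161 CPM without UVB and from 62.2 to 115 after it, with 0 called in edgeR and 2 at an unadjusted p under 0.05. The ratio of the C1q sum to the macrophage sum was 19.0% to 29.0% in all 12 libraries. Red cell genes (6) were all called lower after UVB, and TG 11 stood apart with 36.6 CPM of adipocyte genes against at most 7.89 in the other 11. The part of these lists in the results was not tested, and the nodes were strained before lysis in every group.

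**Figure D4:**
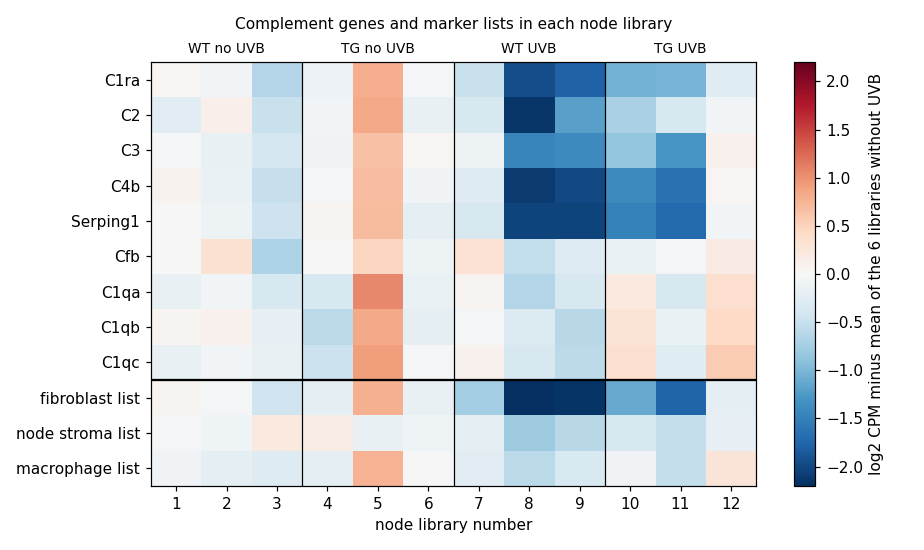
Log2 CPM of each complement gene and of 3 marker lists in each of the 12 node libraries, minus the mean of the 6 libraries without UVB (blue lower, red higher). The rows of *C1ra*, *C2*, *C3*, *C4b* and *Serping1* and the fibroblast list are darkest blue in libraries 8 and 9, where *C4b* stands at -2.11 and -1.99 and the list at -2.19 and -2.15, and the C1q and *Cfb* rows stay nearer 0.

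Within each genotype the UVB contrast had fewer libraries. In WT nodes 0 of 9 members passed (4.98% of all genes did), with 2 of 9 at an unadjusted p under 0.05, *C1ra* and *C2* (26.3% of all genes). DESeq2 called 1 of 9 there, *C1ra* (12.4% of all genes). In TG nodes 0 of 9 passed (0% of all genes did), with 1 of 9 at an unadjusted p under 0.05, *C1ra* (9.32% of all genes). DESeq2 called 0 of 9 in TG nodes (0.847% of all genes). The estimates lay close together in the 2 genotypes: *C1ra* -1.06 in WT and -1.01 in TG, *C4b* -1.03 and -1.03, *Serping1* -1.06 and -1.13, *C2* -0.86 and -0.63, *C3* -0.65 and -0.80. Without WT 7 the *C1ra* estimate in WT was -1.67 (adjusted p = 0.0347). The difference between the genotypes was tested as an interaction, in which 0 of 9 passed (0% of all genes did). At an unadjusted p under 0.05 there were 0 of 9 (5.45% of all genes), and DESeq2 called 0 of 9 (0.0495% of all genes). The interaction estimates ran from -0.15 for *C3* (95% interval -1.55 to 1.24) to 0.37 for *C1qb* (SE 0.43), with 0.05 for *C1ra* (-1.17 to 1.27). For *C3* and *C1ra*, 2-fold differences in response either way lay within the intervals.

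The TG nodes were compared with WT nodes to ask whether the epidermal transgene went with other complement levels in the draining node. Without UVB 0 of 9 passed, after UVB 0 of 9, and over both treatments 0 of 9, where 0%, 0% and 0.00618% of all genes did. No member reached an unadjusted p under 0.05 in any of the 3 contrasts (3.39%, 6.99% and 4.66% of all genes did). DESeq2 called 0 of 9 in each (0.0124%, 0.117% and 0.0804% of all genes). All 9 estimates were above 0 in each contrast, where 49.0%, 51.2% and 49.1% of all genes were, with medians of 0.42, 0.40 and 0.40. Over both treatments they ran from 0.16 for *Cfb* (95% interval -0.26 to 0.58) to 0.57 for *C2* (-0.01 to 1.16). After UVB they ran from 0.13 for *Cfb* to 0.69 for *C2*, and without UVB from 0.14 for *C1qb* to 0.52 for *C1qa*. TG 5 weighed on the contrast without UVB, and without that library *C1qa* stood at -0.06 and *C1qb* at -0.39. Some marker lists moved with these estimates, and others did not. Over both treatments 6 of 7 fibroblast genes had estimates above 0 (median 0.51, 1 of 7 at an unadjusted p under 0.05) and 9 of 10 macrophage genes did (median 0.39, 4 of 10). Of the neutrophil genes 5 of 5 tested (median 1.89) and of the red cell genes 6 of 6 (median 1.45) were above 0 with an unadjusted p under 0.05, and 0 genes of these 4 lists passed the adjusted threshold in edgeR. Red cell genes summed to 121 to 264 CPM in WT and 262 to 304 in TG without UVB, and to 10.8 to 39.5 and 26.2 to 160 after it. Neutrophil genes summed to 2.41 to 6.63 CPM in WT and 7.22 to 11.8 in TG without UVB, and to 1.56 to 2.43 and 2.44 to 11.7 after it. Without UVB all 6 T cell genes (median -0.11), all 6 B cell genes (-0.21) and all 12 type I interferon genes (-2.05) had estimates below 0. Of these interferon genes 9 of 12 had an unadjusted p under 0.05 (3.39% of all genes), and 0 passed. After UVB all 12 were above 0 (median 1.29), as were 5 of 6 T cell and 4 of 6 B cell genes. The part of these lists was not tested.

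**Figure D5:**
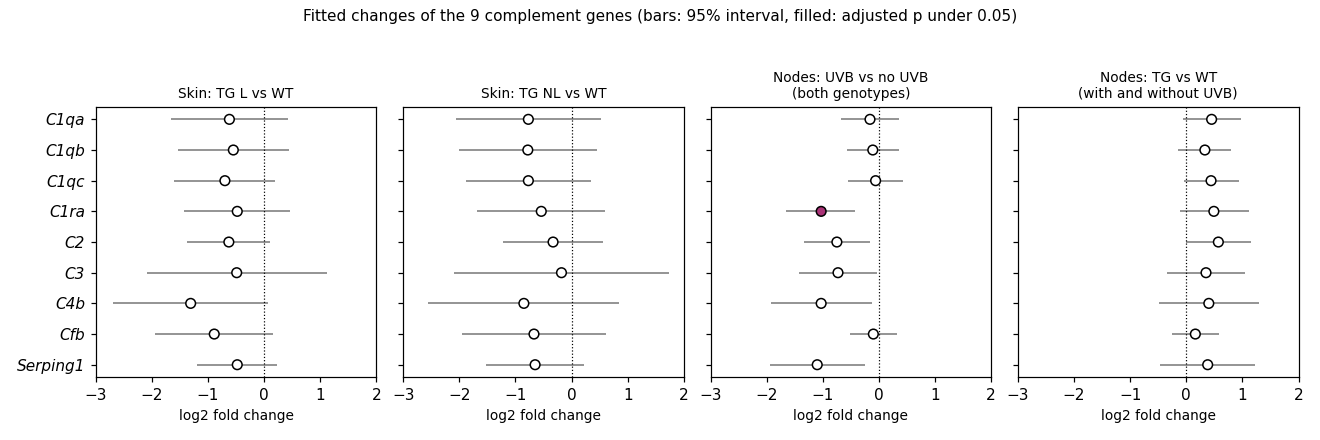
Fitted log2 fold changes of the 9 complement genes with 95% intervals for L over WT skin, NL over WT skin, UVB over no UVB in nodes (both genotypes) and TG over WT in nodes (both treatments), with a filled point for an adjusted p under 0.05. *C1ra* after UVB is the filled point, and in both skin panels all 9 points lie left of 0.

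Members parted into groups by how their levels varied over libraries. As the root-mean-square difference of centred log2 CPM, *C4b* and *Serping1* were 0.07 apart over the 12 node libraries, the closest pair there, and their count ratio stayed between 0.545 and 0.629 in all 12. In the 9 skin libraries the same pair was 0.74 apart, with a ratio of 0.321 to 1.73. The C1q chains were 0.10 to 0.12 apart in skin and 0.12 to 0.20 in nodes. *Cfb* was nearer to *C1qa* (0.30) than to *C4b* (0.72) in nodes, but in skin it was nearer to *C4b* (0.43) than to *C1qa* (0.66).

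Among the other tested genes, those nearest in profile to each were listed with the same measure. In nodes the nearest to *C4b* were *Dsc3* (0.14), the collagen genes *Col1a2* (0.16) and *Col6a1* (0.17), *Clu* (0.20) and the chemokine gene *Ccl21a* (0.22), where the median gene was 0.91 away. In nodes the genes near *Cfb* included the interferon-gamma-induced chemokine gene *Cxcl9* (0.14), *Dnase1l3*, *Lrp4* and *Nt5dc2* (0.19 to 0.20, median gene 0.42). The nearest to the C1q mean in nodes were *Cd300a*, *Pla2g2d*, *Apoe*, the lysozyme gene *Lyz2* and *Ctbp2* (0.19 to 0.21, median gene 0.47). In skin the nearest to the C1q mean were *Gm14548*, *Pld4*, the Fc receptor gene *Fcgr3*, *Ncf1* of the phagocyte oxidase and *Pirb* (0.10 to 0.15, median gene 0.76). *C4b* in skin was nearest to its near copy *C4a* (0.14), followed by *Ace*, *Ebf2*, *Folr2* and *Enpep* (0.28 to 0.34, median gene 1.22). *Cfb* in skin was nearest to *Ephx2*, *Pln*, *Serpina3n*, *Cd1d1* and *Ccdc158* (0.23 to 0.26, median gene 0.92). These lists are over 9 or 12 libraries that differed in the marker sums given above, and they describe likeness of levels.

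Of 44 other complement genes, 33 were tested in skin and 22 in nodes. In L against WT skin 3 passed as higher and 6 as lower, where 23.0% and 20.2% of all genes did. Of the 10 regulators tested 2 passed as higher and 5 as lower. The part of tissue composition in these calls was not tested. *Cd55*, which breaks up the C3 convertase on cell surfaces, fell from 114 ± 18.5 CPM in WT (SD, n = 3) to 38.0 ± 8.02 in L (SD, n = 4), a log2 fold change of -1.59 (SE 0.18, adjusted p = 0.000369). *Cd59a* and *Cd59b*, inhibitors of the membrane attack complex, fell by 0.95 and 1.71 on the log2 scale (adjusted p = 0.00146 and 0.00218). *Cr1l*, the mouse cell-surface regulator of C3, fell by 0.43 (adjusted p = 0.00686), and *Vtn* fell by 1.60 from 4.53 ± 0.753 CPM (adjusted p = 0.00714). *Clu*, clusterin, rose from 61.3 ± 3.94 to 154 ± 52.5 CPM (log2 fold change 1.33, adjusted p = 0.00317). *Cpn2*, of carboxypeptidase N, was higher in L at 0.857 ± 0.582 CPM against 0.0228 ± 0.0395 in WT, below the level of 3 counts in WT, so no fold is given (adjusted p = 0.00811). The terminal gene *C8g* fell by 1.81 from 1.48 ± 0.161 CPM (adjusted p = 0.00552). The receptor gene *C5ar2*, named after its values were seen, was higher at 0.210 ± 0.0863 against 0.0244 ± 0.0247 CPM (adjusted p = 0.0170). *Cfd*, factor D, an abundant product of fat cells, had 874 ± 690 CPM in L against 2510 ± 217 in WT and did not pass (log2 fold change -1.52, adjusted p = 0.100).

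Against NL skin the same direction was called for *Clu* and *Cpn2* (higher in L) and for *Cd55*, *Cd59a*, *Cd59b* and *Cr1l* (lower in L), 6 of 33 genes, where 25.0% of all genes were called. *Cd55* had 105 ± 5.36 CPM in NL (SD, n = 2), and its log2 fold change in L was -1.47 (adjusted p = 0.00202). In NL against WT 0 of 33 passed in edgeR, with 1 at an unadjusted p under 0.05 (7.67% of all genes). In nodes after UVB, over both genotypes, *C1s1* and *C1s2* fell, which encode near-identical copies of the protease that acts beside C1r, so reads may be split between them. *C1s1* had 11.5 ± 4.55 CPM without UVB and 4.97 ± 2.26 after it (SD, n = 6), a log2 fold change of -1.18 (adjusted p = 0.0405), and *C1s2* had 0.866 ± 0.256 and 0.244 ± 0.171 (-1.83, adjusted p = 0.0185). *Cr2*, complement receptor 2 of B cells and follicular dendritic cells, rose from 289 ± 52.5 to 386 ± 23.6 CPM (0.42, adjusted p = 0.0398). These were 3 of 22 genes, where 4.81% of all genes were called higher and 3.80% lower.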

How the data were processed

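RNA was sequenced with poly-A selection and 151-base paired ends from 9 skin and 12 inguinal lymph node libraries. Per the labels and methods, the authors used cutadapt 4.8, STAR 2.7.8a and RSEM 1.3.3 on GRCm38. The annotation release is not given in the sources used here. The authors deposited expected counts per gene (RSEM estimates stored as whole numbers, not normalized), 1 table per tissue, with 0 columns that match no sample.

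Here counts of each tissue were filtered (filterByExpr, minimum 10 counts), scaled by TMM and tested with edgeR 4.0.16 (quasi-likelihood test, R 4.3.3, all libraries of a tissue in 1 fit), with Benjamini-Hochberg adjustment over all tested genes at 0.05. CPM used TMM-scaled library sizes, and exon lengths came from GENCODE M21. Library totals were 27599809 to 56511276 counts. Marker sums are CPM added over a list. Profile likeness used log2 CPM with a prior count of 2. The 9 genes and the lists were chosen with earlier results of these data known. Named beside them were up to 8 other complement genes past the threshold, by adjusted p, *Ifnk*, and the 5 genes nearest in profile, of which 1 is not reported here. P-values measure the spread between libraries, which the labels do not tie to animals. Alternatives were DESeq2 1.42.0, RLE scaling, other filters (none, or at least 10 counts in every library), only the compared groups, no robust estimation, keratin, muscle and fat genes left out, *Xist* as a covariate, counts of near copies added, and each library left out in turn. Protein sequences were not used here.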

Additional observations from a re-analysis of the deposited data

Results flagged for a closer look

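*Cfb* in lesional skin held a library far from the others. L 5 had 24.5 CPM where L 4, 6 and 7 had 116, 120 and 107, and its gap to the nearest was 0.864 of the range of the 4 libraries (Dixon's test). L was the group with enough libraries for this test, it was run for 9 genes, and chance flags about 1 group in 20. L 5 was also the library with the lowest muscle, adipocyte and macrophage sums among the L libraries, and their part was not tested.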

How the results depend on the processing

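No paired analysis was possible because the labels do not tie libraries to animals. Of 924 refits of the 49 single-gene estimates, 872 kept their direction and their side of the threshold. No member was called, under any alternative or with any library left out, in L against NL, NL against WT, UVB in TG nodes, the genotype contrasts or the interaction. Of the counts of members called, L against WT went from 0 to 1 with DESeq2 (all genes: 8237 to 9017). With a library left out it was 0 to 2, where 32.9% to 42.5% of all genes were called. UVB in WT nodes went from 0 to 1 with DESeq2 (all genes: 805 to 2002). With a library left out it was 0 to 1, where 0% to 15.9% of all genes were called. UVB over both genotypes went from 1 to 3 with DESeq2 (all genes: 1393 to 2440) and to 0 with no filter on low counts (28033 genes tested, 3.8% called). It went to 0 with *Xist* as a covariate (6.24% of all genes called), which in nodes amounts to leaving out TG 11. With a library left out it went to 0 to 5, where 2.24% to 22.8% of all genes were called. There were 4 without TG 12, where 22.8% of all genes were called, and 5 without WT 7, where 7.19% were. The causes were not tested.

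Signs turned for estimates near 0. With *Xist* as a covariate the interaction of *C3* was 0.11 and the UVB estimate of *C1qc* 0.04. With a library left out, L over NL ran from -0.02 to 0.56 for *C1qb* and from -0.95 to 0.06 for *C3*; TG over WT without UVB from -0.06 to 0.76 for *C1qa* and from -0.39 to 0.40 for *C1qb*; TG over WT after UVB from -0.04 to 0.41 for *Cfb*; the interaction from -0.25 to 0.67 for *C1ra* and from -0.65 to 0.43 for *C3*. UVB over both genotypes ran from -0.30 to 0.11 for *C1qa*, from -0.26 to 0.14 for *C1qb*, from -0.20 to 0.18 for *C1qc* and from -0.24 to 0.01 for *Cfb*. Counting error was not separated from the spread between libraries, and relative counting error is largest where counts are lowest (29 for *C2* in nodes).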
